A study of Mus musculus with 24 samples.

Results

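Loss of Smad2 was examined in mouse E14 embryonic stem cells, a line derived from the early embryo, while they proliferated in serum with leukaemia inhibitory factor (LIF). The members are all genes of the authors' deposited table for these control cells, with no selection on size or p, and they number 19780 of the 20625 genes found in either of the deposited tables. The study held 24 poly(A) RNA libraries in 6 groups of 4. The 3 groups used here were wild-type cells and 2 Smad2 knockout lines, KO1 and KO2, and together they held 12 libraries. All of them grew on gelatin in DMEM with 15% fetal bovine serum and 1000 U of LIF per mL, without INK128. The same 3 genotypes were also treated for 12 h with 200 nM INK128, which blocks mTOR, a kinase that promotes growth. Blocking mTOR pauses such cells, and the paused libraries are used here only where a control value is set beside a paused one. The labels do not say how the knockout lines were made, which allele each carries, or whether each is a single clone. RNA came from 50000 live cells per sample.

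Smad2 is a receptor-regulated Smad. Nodal, activin and TGF-beta bind pairs of serine/threonine kinase receptors, which phosphorylate Smad2 and its close relative Smad3. These join Smad4, enter the nucleus and act with DNA-binding partners such as Foxh1 on genes that include the Nodal inhibitors Lefty1 and Lefty2. In the embryo this pathway patterns the epiblast and induces mesendoderm. In embryonic stem cells it is active at a low level through Nodal that the cells make themselves.

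The control table gives 1 row per gene symbol: a mean normalized read count, a log2 change, its standard error (SE) and a p adjusted over all genes. It holds no value for a single library. The level in each library, the depth of each library and the separate effects of KO1 and KO2 are therefore unknown, and nothing in the labels says whether the 4 libraries of a group were separate cultures. Whether KO1, KO2 or both entered the change is not stated either. The p-values can measure only a spread between libraries, which may be technical. A difference between the cell lines that does not stem from Smad2 cannot be told apart from Smad2 loss. Which genotype stands in the numerator is not named. Since the Smad2 transcript is lower, a change is taken as knockout relative to wild type. Under the opposite reading all directions would be inverted. A gene is called where its deposited DESeq2 adjusted p is under 0.05. Smad2, the targeted gene, had a change of -0.35 (SE 0.07) in the authors' deposited table, with a DESeq2 adjusted p of 6.5e-06 and a mean of 3123 normalized counts. That is 78.6% of the wild-type level. The fall of Smad2 passed neither a test against 1.2-fold nor one with the statistic rescaled to the width of its middle part. Protein was not measured here.

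Markers of embryonic stem cells were present at high counts. All 8 of the markers examined, among them Pou5f1, Nanog, Sox2 and Esrrb, had means between 10438 and 51710 normalized counts in the authors' deposited table. Of these, 1 was called higher and 3 lower. Of 8 markers of feeder fibroblasts, 7 were in the table, with means between 4.17 and 381, and Lum was absent. In those 7 genes 4 were called lower and 0 higher. Two-cell-like, primitive endoderm, trophoblast and neural markers are given with the lists they belong to.

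Many genes were called after Smad2 loss in the deposited test, and most changes were small. Of the 19778 genes with a p in the authors' deposited table, 8189 were called (41.4%), 3858 higher (19.5%) and 4331 lower (21.9%). With the statistic rescaled to the width of its middle part, 293 were called. The median change over all genes was 8.5e-04 on the log2 scale. Calls that also reached 2-fold numbered 1380, 6.98% of genes tested, 882 higher (4.46%) and 498 lower (2.52%). At least 4-fold, 109 were higher and 115 lower. With summed counts set equal in both genotypes 60.5% of 7868 calls were higher, and with the median of abundant genes set to 0 60.1% of 7861, against 47.1% as deposited. The shift behind each was 0.05 to 0.06 on the log2 scale, so the direction of the smallest changes depends on the scaling. In the remainder, "centred" means that the median over the 10795 genes at or above 230 mean normalized counts was set to 0. In a test against 1.2-fold as the null, 6.35% of genes were higher and 4.22% lower.

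**Figure D1:**
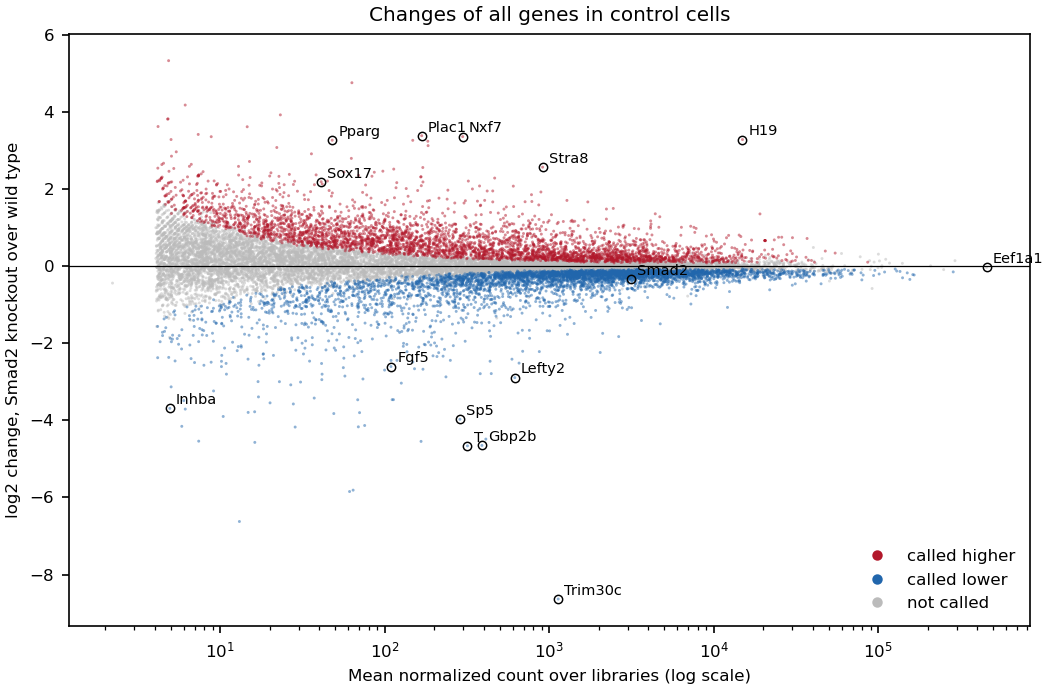
Log2 change of each gene of the control table, Smad2 knockout over wild type (vertical axis), against its mean normalized count on a log axis (horizontal). Genes called at an adjusted p under 0.05 are coloured by direction, and the named genes of large change include T at -4.66 and H19 at 3.28.

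The balance of directions followed abundance. In the first of 10 equal groups of genes by mean count, the lowest, 8.19% were called higher and 2.88% lower, and the median change was 0.31. In the highest of the 10 groups 14.3% were called higher and 36.8% lower, and the median was -0.07. Most of the large rises were at low counts: 87.5% of the genes called at least 2-fold higher, and 77.3% of those at least 2-fold lower, lay below 230 normalized counts. Above that level 110 genes were called at least 2-fold higher and 113 lower.

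**Figure D2:**
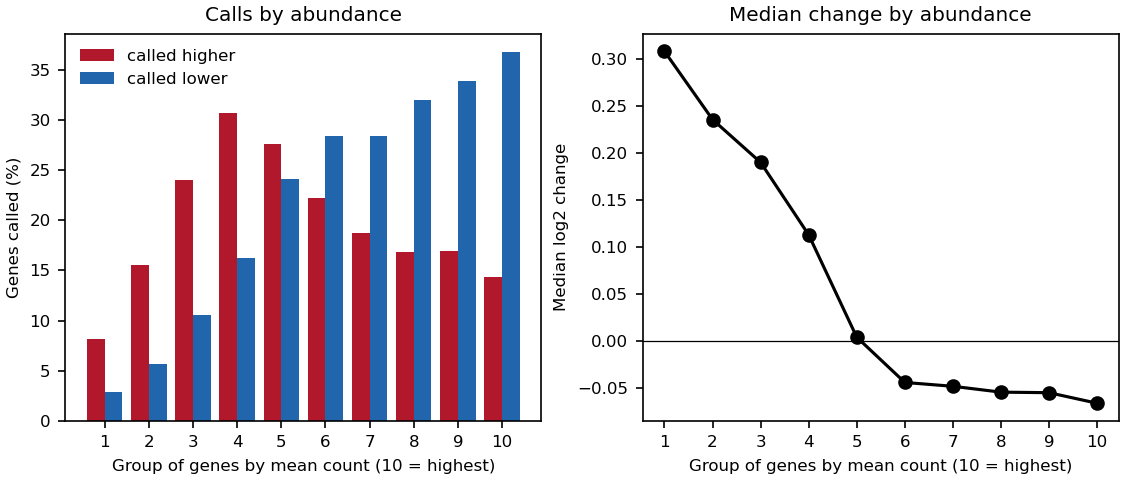
Left, percent of genes called higher or lower in 10 equal groups by mean normalized count, from 1 (lowest) to 10 (highest). Right, median log2 change in each group, which goes from 0.31 in the lowest to -0.07 in the highest.

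Several genes that Nodal signalling is known to induce fell steeply, while Nodal and its co-receptor gene did not pass the test. Of the 15 measured members of a list of Nodal feedback and target genes 10 were called lower and 1 higher, with a median of -0.36, beside 21.9% of all genes called lower. The inhibitors Lefty2 and Lefty1 fell with log2 changes of -2.89 (SE 0.12) and -2.52 (SE 0.14) in the authors' deposited table. T, the gene of brachyury, a driver of mesoderm, had a log2 change of -4.66 (SE 0.48) in the authors' deposited table (DESeq2 adjusted p 9.11e-21), and the mesendoderm factors Eomes and Mixl1 had -0.94 (SE 0.18) and -1.51 (SE 0.37). Nodal itself had a log2 change of 0.03 (SE 0.07) and Tdgf1, its co-receptor, -0.12 (SE 0.07), neither called (DESeq2 adjusted p 0.78 and 0.18). Under the test against 1.2-fold 7 of the 10 falls passed.

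The genes of the pathway's own ligands and receptors moved in both directions. In that list of 19, 7 were called lower and 4 higher, with a median of -0.12. Among ligands, Tgfb2 fell with a log2 change of -2.08 (SE 0.45) and Tgfb1 with -0.80 (SE 0.15) in the authors' deposited table. Inhba, the activin subunit, had a log2 change of -3.69 (SE 0.82) at a mean of only 5 normalized counts, so its size is uncertain. Fst, which codes for the activin antagonist follistatin, fell with a log2 change of -1.99 (SE 0.29), and the receptor gene Tgfbr2 with -1.52 (SE 0.28). Pcsk6, a convertase that processes Nodal, rose with a log2 change of 0.81 (SE 0.06) in the authors' deposited table. Among the 8 Smad genes, 4 were called lower and 3 higher. Besides Smad2, the common partner Smad4 fell with a log2 change of -0.19 (SE 0.04) and the inhibitory Smad7 with -0.33 (SE 0.07). The relative Smad3 rose with a log2 change of 0.26 (SE 0.06), and the BMP-branch genes Smad6 and Smad9 with 0.57 (SE 0.10) and 1.23 (SE 0.20). In paused cells the change of Smad3 was -0.21 in the authors' deposited table.

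In the BMP branch, a sister pathway that signals through Smad1, Smad5 and Smad9, 7 of 18 members (38.9%) were called higher and 3 (16.7%) lower. The shares of all genes were 19.5% and 21.9%. The median of the list was -0.01 and became 0.04 when centred. Id2 rose with a log2 change of 0.50 (SE 0.09) and Id4 with 0.51 (SE 0.11) in the authors' deposited table; both code for inhibitors of helix-loop-helix factors. Msx2, a homeobox gene downstream of BMP, rose with a log2 change of 1.01 (SE 0.16). Bmp2 fell with a log2 change of -0.82 (SE 0.35).

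Many genes of FGF and Wnt signalling fell. In the list of FGF and ERK feedback genes 11 of 19 were called lower and 2 higher, with a median of -0.35. The feedback phosphatases Dusp4 and Dusp6 fell with a log2 change of -1.33 (SE 0.21) and -1.17 (SE 0.14) in the authors' deposited table, and the ligands Fgf5 and Fgf8 with -2.61 (SE 0.28) and -2.13 (SE 0.35). The receptor Fgfr3 rose with a log2 change of 1.00 (SE 0.14) and Fgf4 with 0.50 (SE 0.07). In the list of Wnt effectors and targets 14 of 25 were called lower and 4 higher, with a median of -0.38, and 11 stayed lower when centred. Sp5, a direct Wnt target in many tissues, fell with a log2 change of -3.97 (SE 0.37), Wnt3 with -2.45 (SE 0.34), Lgr5 with -1.32 (SE 0.54) and Cdx1 with -1.21 (SE 0.25) in the authors' deposited table. Dkk1, which codes for a Wnt antagonist, rose with a log2 change of 1.45 (SE 0.28).

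Apart from T, the steepest falls among genes above 230 normalized counts with an SE of at most 0.5 were those of Sp5 and of the guanylate-binding protein genes Gbp2 and Gbp2b. For these the sequence before the start site is given from RefSeq (GRCm38.p6), 250 bases, 5′ to 3′, on the plus strand. Sp5 lies on chromosome 2, at chr2:70474673-70474922, and the capitals mark a TCF/LEF motif, CTTTGAT. For Gbp2 (chr3:142620413-142620662) and Gbp2b (chr3:142594597-142594846) the capitals mark an interferon element.
Sp5: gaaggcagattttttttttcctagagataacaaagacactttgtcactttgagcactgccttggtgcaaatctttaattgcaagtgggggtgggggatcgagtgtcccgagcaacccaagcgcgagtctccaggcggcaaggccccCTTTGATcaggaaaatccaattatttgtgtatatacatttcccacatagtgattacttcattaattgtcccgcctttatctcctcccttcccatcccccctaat
Gbp2: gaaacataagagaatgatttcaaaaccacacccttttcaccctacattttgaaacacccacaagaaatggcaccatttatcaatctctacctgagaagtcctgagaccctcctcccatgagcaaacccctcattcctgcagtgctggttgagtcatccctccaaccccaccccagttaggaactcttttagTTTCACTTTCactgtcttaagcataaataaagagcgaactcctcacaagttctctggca
Gbp2b: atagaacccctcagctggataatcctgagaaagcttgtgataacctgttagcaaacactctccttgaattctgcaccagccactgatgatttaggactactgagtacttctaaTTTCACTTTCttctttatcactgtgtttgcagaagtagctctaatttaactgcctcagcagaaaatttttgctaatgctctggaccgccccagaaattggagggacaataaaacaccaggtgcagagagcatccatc
The share of promoters holding a motif on either strand was then counted in windows of 300 bases, 250 before the start to 50 after it, with overlaps between motifs not excluded. CTTTGAT was found in 3.08% of 454 promoters of genes at least 2-fold lower and in 3.49% of 774 of genes at least 2-fold higher. Over all 18481 promoters with a sequence the share was 2.82%. The interferon element was found in 5.07%, 4.13% and 2.91%, the FOXH1 motifs (AATCCACA or AATACACA) in 1.54%, 1.03% and 1.21%, the SMAD palindrome GTCTAGAC in 0.220%, 0.258% and 0.260%, and the short SMAD motif CAGACA in 21.8%, 22.5% and 17.9%. These are counts of letters in a reference, not of binding. A promoter sequence was at hand for 342 of the 498 genes at least 2-fold lower and 613 of the 882 higher. Over all genes it was at hand for 14584 of 19780. Lefty1, Lefty2, H19 and Fgf8 had none, so the motif shares say nothing about them.

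Among pluripotency genes, those of the naive list were called higher more often than lower, and those of a mixed list of core and formative genes the reverse. Of 19 naive pluripotency genes 8 (42.1%) were called higher and 1 (5.3%) lower, with a median of 0.08, and 4 passed the test against 1.2-fold as higher. Tbx3 rose with a log2 change of 1.00 (SE 0.07), Tet2 with 0.59 (SE 0.07) and Klf4 with 0.56 (SE 0.06) in the authors' deposited table. Prdm14, a repressor of the differentiation programme, rose with a log2 change of 0.39 (SE 0.09), and Dppa3 fell with -0.50 (SE 0.13). Zfp42 (log2 change 0.07, SE 0.09) was not called. Of 18 core and formative genes 10 (55.6%) were called lower and 2 (11.1%) higher, with a median of -0.19, and 4 passed the test against 1.2-fold as lower. The falls included the core gene Pou5f1 (log2 change -0.18, SE 0.06). Zic2 rose with a log2 change of 0.35 (SE 0.11), and Dnmt3a (-0.02, SE 0.09) was not called. Fgf5 (log2 change -2.61, SE 0.28) and Pou3f1 (-1.49, SE 0.10), which mark the epiblast after implantation, and Lin28b (-0.999, SE 0.07), which codes for a repressor of let-7, fell in the authors' deposited table, and Sox2 (0.06, SE 0.09) was not called. In the LIF and STAT3 list 3 of 14 (21.4%) were higher and 5 (35.7%) lower, with a median of -0.14. The shares of all genes were 19.5% higher and 21.9% lower.

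Among lineage genes many of the extra-embryonic lists rose, and several mesoderm genes fell. A lower or higher count in bulk RNA cannot tell fewer cells of a type from less RNA per cell. In the list for primitive endoderm and basement membrane 13 of 19 members were called higher and 2 lower, with a median of 0.53. The factors Sox17 (log2 change 2.19, SE 0.31), Gata6 (1.76, SE 0.18), Sox7 (1.12, SE 0.15) and Gata4 (1.01, SE 0.13) rose in the authors' deposited table, at means between 41.1 and 122 normalized counts. All 6 primitive endoderm markers were called higher. In the trophoblast list 9 of 19 were higher and 3 lower, with a median of 0.38. Plac1, a placental gene, rose with a log2 change of 3.38 (SE 0.24), Esx1 with 2.08 (SE 0.14), Hand1 with 1.95 (SE 0.18) and Gata3 with 1.54 (SE 0.13), whereas Eomes fell and Krt8 (-0.78, SE 0.38) was not called. Of 5 trophoblast markers 3 were higher and 1 lower. The lower marker was Cdx2 (log2 change -0.84, SE 0.22), and Elf5 (0.60, SE 0.40) was not called. Primitive streak genes were split: of 16 members 4 (25%) were called higher and 5 (31.25%) lower, not far from the 19.5% and 21.9% of all genes. In that list T and Mixl1 (log2 change -1.51, SE 0.37) were lower and Sox17 and Pdgfra (1.41, SE 0.15) higher. Neuroectoderm genes were split as well, with 4 of 17 (23.5%) higher and 5 (29.4%) lower, again not far from the shares of all genes. Of 4 neural markers 1 was higher and 2 lower. Sox1 (log2 change 0.98, SE 0.16) and Neurog1 (1.06, SE 0.16) rose, and Nes (-1.74, SE 0.16) and Sox11 (-1.22, SE 0.12) fell in the authors' deposited table. The part played by marker levels of other cell types in these results was not tested.

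**Figure D3:**
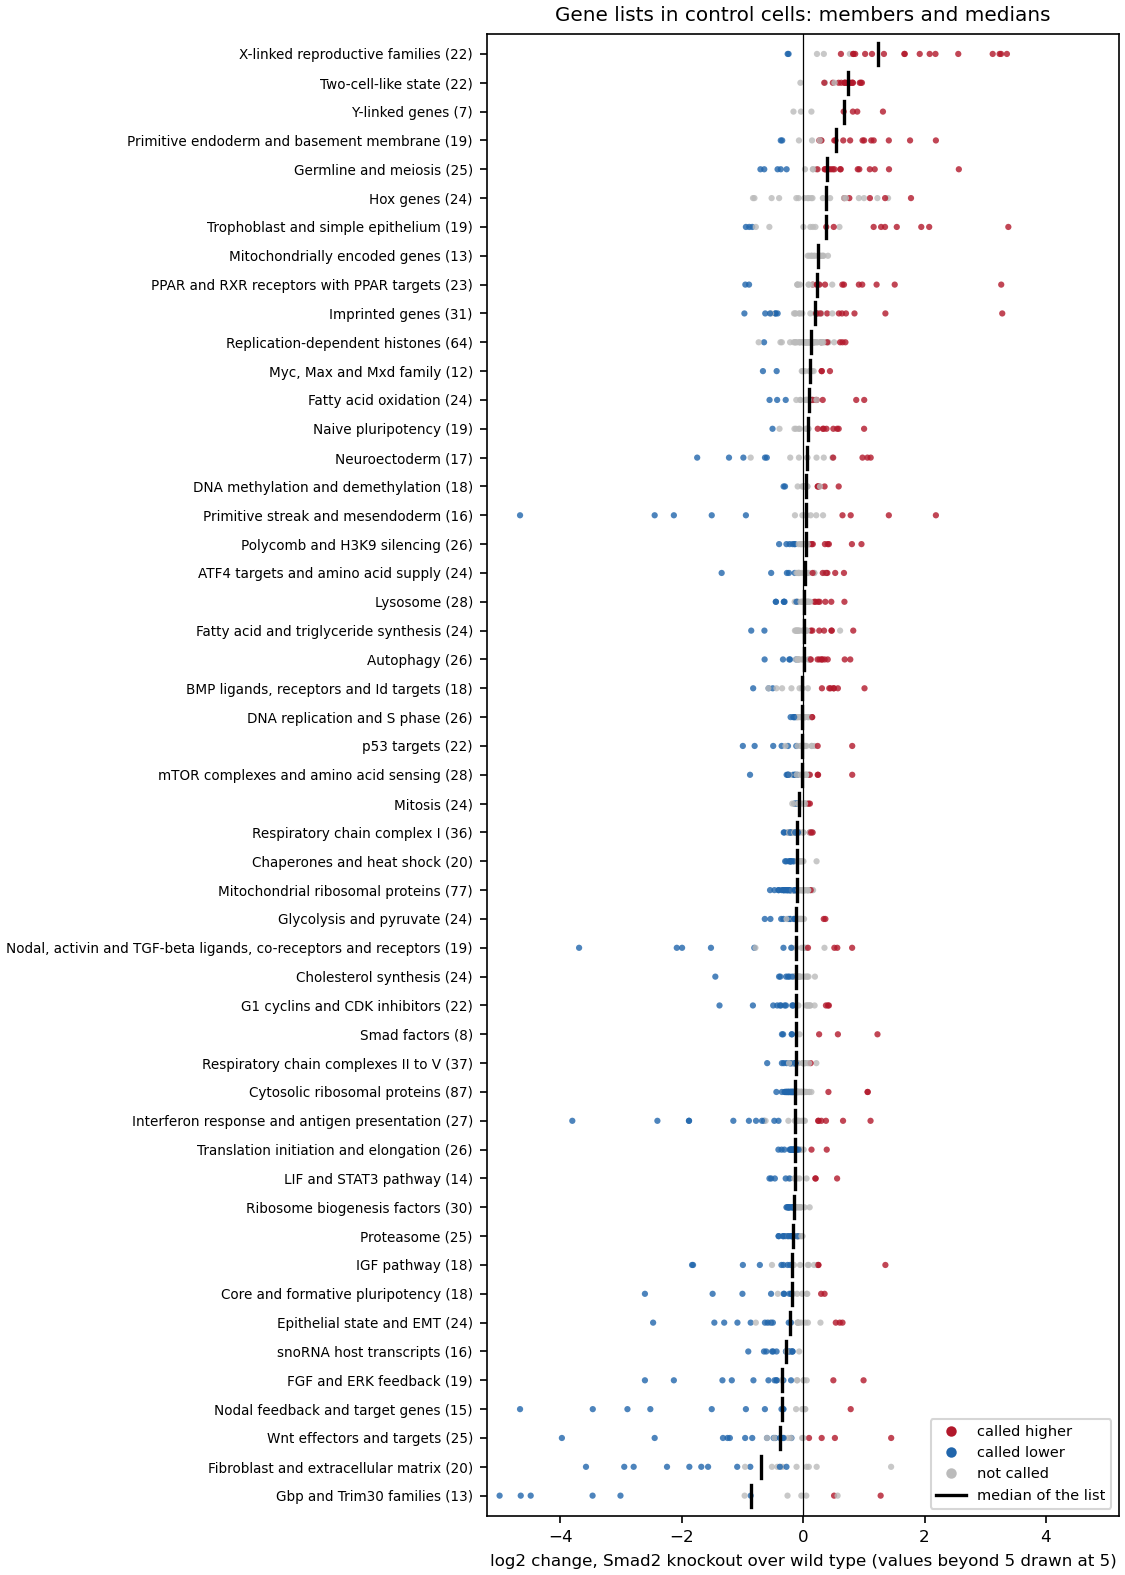
Log2 change of each member of each gene list after Smad2 loss in control cells (points, coloured by call, beyond 5 drawn at 5), with the list median as a bar and the number of members in parentheses. The medians of X-linked reproductive families (1.23), the two-cell-like state (0.74) and the Gbp and Trim30 families (-0.86) are among those furthest from 0.

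Most measured genes of the two-cell-like state, and 16 of 25 germline genes, were called higher. Two-cell-like cells are a rare fraction that resembles the early embryo, and their genes include the Zscan4 cluster and the Dux targets. Of 22 members 19 were called higher and 0 lower, with a median of 0.74, and 13 passed the test against 1.2-fold. However, 0 were called at least 2-fold higher. With the statistic rescaled to the width of its middle part 0 passed, where 293 of all genes did. Zscan4b rose with a log2 change of 0.80 (SE 0.12), Tmem92 with 0.97 (SE 0.17) and Duxf3, the Dux gene, with 0.95 (SE 0.15) in the authors' deposited table. Of 6 two-cell-like markers 5 were called higher. Germline genes were called higher in 16 and lower in 5 of 25, with a median of 0.39. Stra8, which induces meiotic entry, rose with a log2 change of 2.57 (SE 0.16), and Asz1 with 1.42 (SE 0.25), Smc1b with 1.18 (SE 0.10) and Dazl with 1.10 (SE 0.07). X-linked reproductive families gave the highest median of the 51 lists, 1.23, with 17 of 22 called higher and 2 lower. The lists were chosen with earlier results of these data known, so this rank is no independent result. Nxf7 rose with a log2 change of 3.36 (SE 0.21), Xlr5a with 3.26 (SE 0.21) and Xlr5b with 3.24 (SE 0.22). Many of these are near-identical copies: 9 of the 22 X-linked and 5 of the 22 two-cell genes share over 50% of their sequence in 75-base windows with another gene, so single values for them are uncertain.

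Of 31 imprinted genes 11 (35.5%) were called higher and 6 (19.4%) lower, with a median of 0.20. Beside the lists of this paragraph stand 19.5% of all genes called higher and 21.9% lower. H19 rose with a log2 change of 3.28 (SE 0.07) and its neighbour Igf2 with 1.36 (SE 0.24) in the authors' deposited table, and Grb10 fell with -0.97 (SE 0.11). Igf2 shares 60.3% of its 75-base windows with another annotated gene, so its value is uncertain. In the IGF pathway 8 of 18 genes (44.4%) were lower and 3 (16.7%) higher, with a median of -0.18. Igfbp3, which codes for an IGF carrier, fell with a log2 change of -1.83 (SE 0.29), and the receptor substrates Irs1 and Irs2 with -1.81 (SE 0.29) and -0.71 (SE 0.22) in the authors' deposited table. Of 37 Hox genes listed 24 were measured. Of these 5 (20.8%) were called higher, near the 19.5% of all genes, and 0 lower, with a median of 0.39. Their mean counts were low, with a median of 12.3 and a highest of 134 normalized counts. Of all genes with a mean of 8.66 to 20.1 normalized counts 15.6% were higher and 5.66% lower, with a median of 0.24. The positive sign of the Hox median was thus shared by genes of like mean. Hoxc12 had a log2 change of 1.78 (SE 0.39) and Hoxb4 1.10 (SE 0.37), at means of only 18.2 and 13.2. The 7 Y-linked genes included 4 called higher, among them Zfy2 (log2 change 1.32, SE 0.27). Genes for DNA methylation gave 5 higher (27.8%) and 2 lower (11.1%) of 18, with a median of 0.05. Those for Polycomb and H3K9 silencing gave 8 higher (30.8%) and 6 lower (23.1%) of 26, with a median of 0.04. Bmi1, a subunit of Polycomb repressive complex 1, rose with a log2 change of 0.96 (SE 0.10) in the authors' deposited table, and Suz12, of complex 2, with 0.41 (SE 0.04). Replication-dependent histone genes gave 5 higher (7.8%) and 1 lower (1.6%) of 64, both below the shares of all genes. Most of their transcripts lack a poly(A) tail, and Hist1h2bg had a log2 change of 0.70 (SE 0.13).

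Many extracellular matrix genes and some mesenchymal genes fell. In the fibroblast and matrix list 11 of 20 were called lower and 0 higher, with a median of -0.69, 10 of them when centred. Lox, which codes for a collagen cross-linking enzyme, fell with a log2 change of -3.58 (SE 0.38), Col3a1 with -2.95 (SE 0.37) and Col1a1 with -2.79 (SE 0.40) in the authors' deposited table. The smooth muscle genes Acta2 and Tagln fell with a log2 change of -1.68 (SE 0.20) and -1.87 (SE 0.55). The mean of Tagln was only 4.98 normalized counts. The Col1a1 and Col3a1 means were 381 and 41.5 normalized counts, and the feeder markers beside them are given above. In the epithelial and EMT list 11 of 24 were lower and 3 higher, with a median of -0.22. Cdh2 fell with a log2 change of -1.30 (SE 0.15) and the epithelial Cldn7 with -1.46 (SE 0.25). Twist2 fell with -2.47 (SE 0.63) at a mean of only 10.2 normalized counts. Snai1, a mesenchymal factor gene, rose with a log2 change of 0.65 (SE 0.13). The abundant mesenchymal genes Fn1 (log2 change 0.08, SE 0.09) and Vim (-0.08, SE 0.12) were not called, at means of 26649 and 9669.

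Many genes of the PPAR programme rose, and genes of cholesterol synthesis had no called rise as deposited. Pparg, the nuclear receptor that the series title names, had a log2 change of 3.26 (SE 0.34) in the authors' deposited table (DESeq2 adjusted p 1.96e-19), at a mean of 48 normalized counts. Of 23 PPAR and RXR receptors with PPAR targets 12 were called higher and 2 lower, with a median of 0.23, and 7 passed the test against 1.2-fold. Lpl rose with a log2 change of 1.21 (SE 0.13), Cidec with 1.51 (SE 0.42) and Cidea with 0.92 (SE 0.14), and Plin2 fell with -0.95 (SE 0.28). In fatty acid oxidation 7 of 24 (29.2%) were higher and 3 (12.5%) lower, with a median of 0.09. Slc25a20, the carnitine carrier of mitochondria, rose with a log2 change of 1.01 (SE 0.05). In fatty acid and triglyceride synthesis 7 (29.2%) were higher and 2 (8.3%) lower of 24. In cholesterol synthesis 8 of 24 were lower and 0 higher as deposited, and 4 lower and 3 higher when centred. The share lower, 33.3%, was near that of all genes of like mean. Of all genes with a mean of 1409.5 to 2580.2 normalized counts 32.0% were lower and 16.8% higher. Glycolysis genes gave 10 lower (41.7%) and 2 higher of 24, and 6 lower when centred. Of all genes from 5331 normalized counts upward 36.8% were lower. Pfkfb3 had a log2 change of -0.63 (SE 0.14) and Pdk1 of -0.54 (SE 0.12) in the authors' deposited table. Targets of ATF4, the factor of the amino acid response, gave 6 higher (25.0%) and 5 lower (20.8%) of 24. These shares were near the 19.5% and 21.9% of all genes. The arginine carrier gene Slc7a1 rose with a log2 change of 0.53 (SE 0.06), and Phgdh, the first enzyme of serine synthesis, fell with -0.53 (SE 0.07). Asns (log2 change 0.09, SE 0.08) was not called.

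In lists for translation, the proteasome and the respiratory chain more genes were called lower than higher, by small amounts and in numbers that depend on the scaling. That also held for abundant genes at large: of all genes with a mean of 1409.5 to 2580.2 normalized counts 32.0% were lower and 16.8% higher, and of those from 5331 upward 36.8% and 14.3%. When centred, 60.1% of 7861 calls over all genes were higher. In the list of translation factors 19 of 26 were called lower and 2 higher, with a median of -0.14, and 9 lower and 2 higher when centred. Ribosome biogenesis factors were lower in 15 of 30 and 11 when centred, proteasome genes in 15 of 25 and 9, and snoRNA host transcripts in 13 of 16 and 7. Of 87 cytosolic ribosomal protein genes 39 were lower and 3 higher, and 9 lower and 5 higher when centred. Mitochondrial ribosomal protein genes were lower in 29 of 77, and 16 were lower and 7 higher when centred. Respiratory complex I genes were lower in 10 of 36, and 1 was lower and 4 higher when centred. Those of complexes II to V were lower in 16 of 37, and 5 were lower and 4 higher when centred. The shares lower for complex I (27.8%) and mitochondrial ribosomal protein genes (37.7%) lie near that of all genes of like mean. In these 8 lists only Mrpl16 (log2 change -0.54, SE 0.09) passed the test against 1.2-fold as lower. In the family of Myc, Max and Mxd genes 3 of 12 (25.0%) were higher and 2 (16.7%) lower, not far from the 19.5% and 21.9% of all genes. Mycn, a driver of growth, fell with a log2 change of -0.66 (SE 0.05) and Myc with -0.44 (SE 0.08) in the authors' deposited table, and Mxd1, whose product opposes Myc, rose with 0.44 (SE 0.09). Chaperone genes gave 9 lower and 0 higher of 20, and 5 lower when centred. The 13 mitochondrially encoded genes, a list taken by chromosome after seeing the table, gave 0 calls and a median of 0.24, with COX1 at a log2 change of 0.14 (SE 0.20).

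Most genes of S phase and mitosis were not called, and several G1 genes were. Of all genes 19.5% were called higher and 21.9% lower. Of 22 genes for G1 cyclins and their inhibitors 10 were lower and 3 higher, with a median of -0.12. Cdk6, which drives the G1 phase, fell with a log2 change of -1.38 (SE 0.08) and Ccnd2 with -0.83 (SE 0.09), and Cdkn1a, a cyclin-dependent kinase inhibitor, fell with -0.49 (SE 0.10) in the authors' deposited table. S phase genes gave 5 lower and 2 higher of 26, and 2 lower and 6 higher when centred, so that their median turned from -0.02 to 0.04. Mitosis genes gave 6 lower and 2 higher of 24, and 1 lower when centred. As deposited, the shares lower were 19.2% for S phase and 25.0% for mitosis. Of all genes from 5331 normalized counts upward 36.8% were lower and 14.3% higher. For p53 targets the median was -0.02 and 0.03 when centred. Autophagy genes were higher in 10 and lower in 5 of 26, with Gabarapl2 at a log2 change of 0.78 (SE 0.11) and Atg14 at 0.69 (SE 0.05). Lysosome genes gave 7 higher (25.0%) and 6 lower (21.4%) of 28, near the shares of all genes. The mTOR list gave 4 higher (14.3%) and 9 lower (32.1%) of 28, with a median that moved from -0.02 to 0.03 when centred. Its shares were near the 16.8% and 32.0% of all genes with a mean of 1409.5 to 2580.2 normalized counts.

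Several genes of the interferon response and of antigen presentation fell steeply. Of 27 measured members 11 were lower and 6 higher, with a median of -0.14, and 8 passed the test against 1.2-fold as lower. Psmb8, an immunoproteasome subunit, fell with a log2 change of -3.80 (SE 0.43) and Tap2 with -1.88 (SE 0.24) in the authors' deposited table. B2m, the light chain of class I molecules, fell with -1.15 (SE 0.26). Their means were 70.4, 66.3 and 301 normalized counts. Ifih1, an RNA sensor, fell with -2.40 (SE 0.58) and Ifit1 with -1.88 (SE 0.67). The means of Ifih1 and Ifit1 were only 6.66 and 5.49, so the sizes of their falls are uncertain. The transcription factor Irf7 went the other way, with a log2 change of 1.11 (SE 0.37) at a mean of 13.2. The abundant members Ifitm1 (log2 change 0.03, SE 0.10) and Ifitm3 (-0.09, SE 0.05) were not called, at means of 7916 and 6278. Of 13 Gbp and Trim30 genes 6 were lower and 2 higher, with a median of -0.86. Gbp2b fell with a log2 change of -4.65 (SE 0.41) and Gbp2 with -4.49 (SE 0.40). Trim30c had a log2 change of -8.64 (SE 2.02), with an SE larger than those of the other named genes. Its log2 change in paused cells was -0.43, at a mean of 3.19 normalized counts there against 1135 in the control table, in the authors' deposited table. The promoter letters of Gbp2 and Gbp2b are printed above.

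Of the 15 largest rises and 15 largest falls above 230 normalized counts, several belong to no list. Rises without a list included Fbp2, a muscle isoform of fructose bisphosphatase, with a log2 change of 2.07 (SE 0.16) in the authors' deposited table, Xist, which silences an X chromosome, with 2.00 (SE 0.27), Fkbp6, needed for meiosis, with 1.85 (SE 0.07), and Mypn, a sarcomere protein gene, with 1.70 (SE 0.10). Falls without a list included Prss23 (log2 change -2.87, SE 0.40), Sema6a (-2.79, SE 0.31), Cnn1, a smooth muscle calponin (-2.47, SE 0.33), Anxa3 (-2.22, SE 0.33) and the transcription factor Bhlhe40 (-2.21, SE 0.35). Thbs1, a matrix glycoprotein of the fibroblast list, fell with a log2 change of -2.24 (SE 0.35) in the authors' deposited table.

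Some called genes lay side by side in the genome, and most lay outside such runs. Runs of at least 5 neighbouring genes called in 1 direction numbered 47 higher, holding 286 of the 3858 genes called higher, and 33 lower, holding 180 of the 4331 called lower, among 18909 genes placed by symbol on RefSeq GRCm38.p6. The highest median among the 5 longest runs of rises was that of 11 genes on chromosome X with the Xlr cluster, 2.18, with Xlr5a at a log2 change of 3.26 (SE 0.21). The longest held 14 genes on chromosome 4, with a median of 0.80. A run on chromosome 11 with Tmem92 had 8 genes and a median of 1.15. Among the falls, 6 genes on chromosome 1 held Lefty2, Lefty1 and Tmem63a, with a median of -1.77, and Tmem63a fell with a log2 change of -1.74 (SE 0.15) in the authors' deposited table. A run of 6 genes on chromosome 2 held Sp5, Myo3b and Gad1, with a median of -1.51. The Xlr run has 6 of 11 genes that share over 50% of their sequence with another gene, and the 4 genes of the Lefty run with a transcript sequence have 0.

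**Figure D4:**
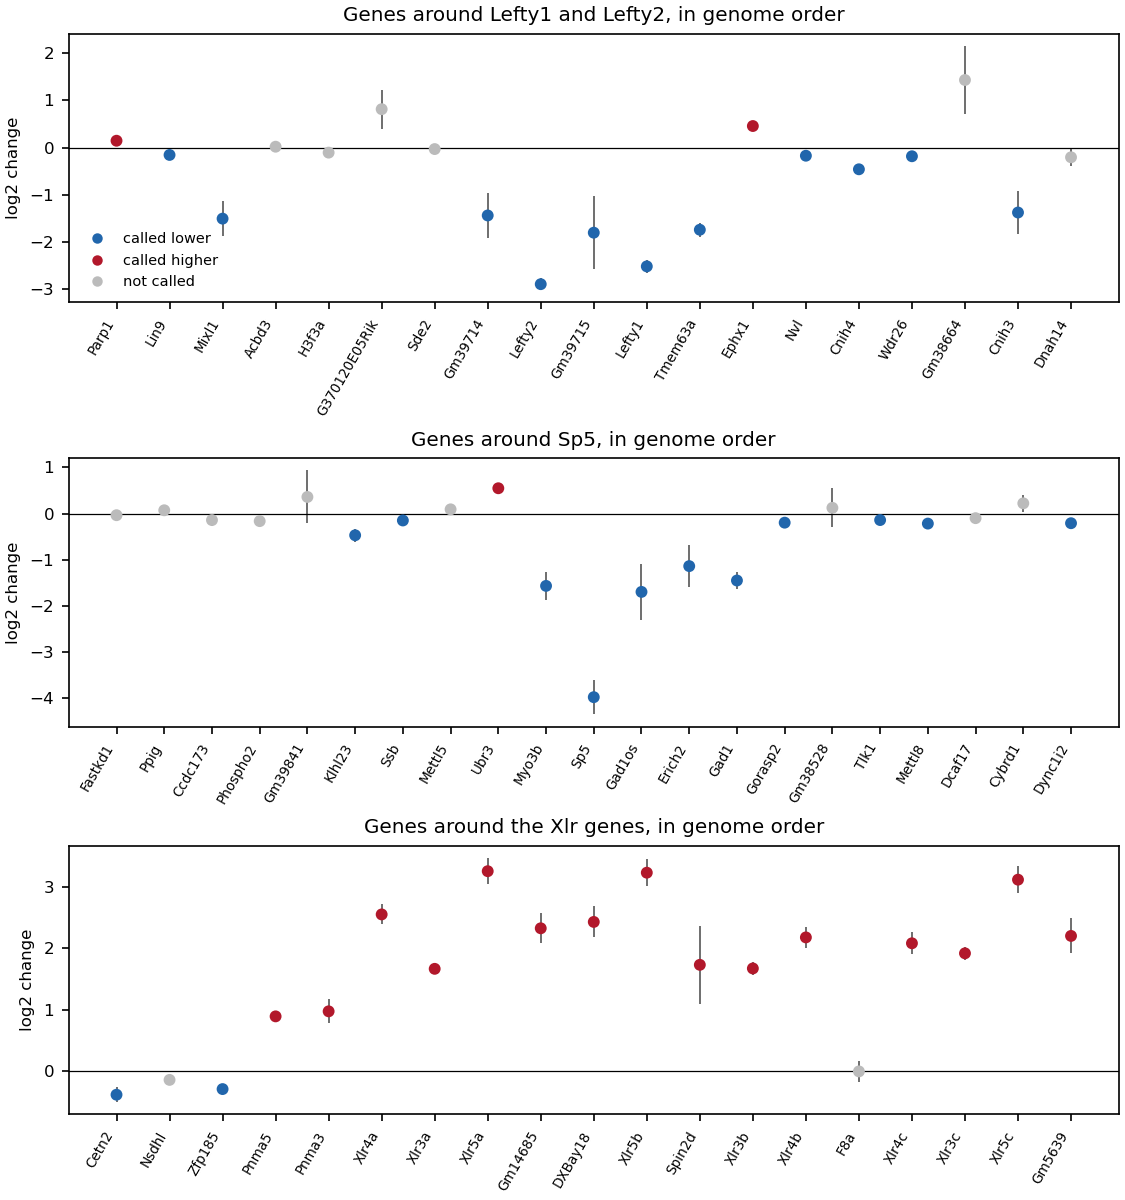
Log2 change (points, bars for the SE) of genes in genome order around Lefty1 and Lefty2, around Sp5 and around the Xlr genes; not every gene of a locus is drawn. Lefty2 at -2.89 and Sp5 at -3.97 are the deepest falls in their panels, and the Xlr genes lie above 0.

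By chromosome, the median of genes above 230 normalized counts ran from -0.11 on X and -0.10 on 14 to -0.02 on 6, apart from the small sets on Y and of mitochondrial genes. The share of such genes called lower ran over the autosomes from 26.4% on 6 to 40.0% on 3, with 39.7% on 14, and was 40.8% on X. By type, 17.2% of 2272 lncRNA genes were called higher and 5.37% lower, against 20.0% and 25.4% of 16145 protein-coding genes, at median means of 13.4 and 674 normalized counts. Of families of 15 or more genes named by the letters of their symbol, the highest shares called higher were Myo (52%), Rhox (50%), Dnah (46.7%), Atg (44.4%), Kdm (44.4%) and Serpinb (43.8%), and the highest shares called lower were Snhg (62.5%), Bcl (60%), Polr (57.1%), Trmt (56.3%), Mapk (55.6%) and Eif (54.5%).

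The changes in control cells were last set beside those in paused cells. Differences between the 2 changes were tested per gene, and 275 of 19134 genes, 1.44%, passed. The two-cell-like list had medians of 0.74 in control and 0.66 in paused cells, with 0 of 22 members called different. The Nodal list had -0.36 and -0.32, with 2 of 15 called. The X-linked list had 1.23 and 1.55 with 0 called, and the trophoblast list 0.38 and 0.57 with 3. A difference that did not pass does not show that the changes were alike.

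**Figure D5:**
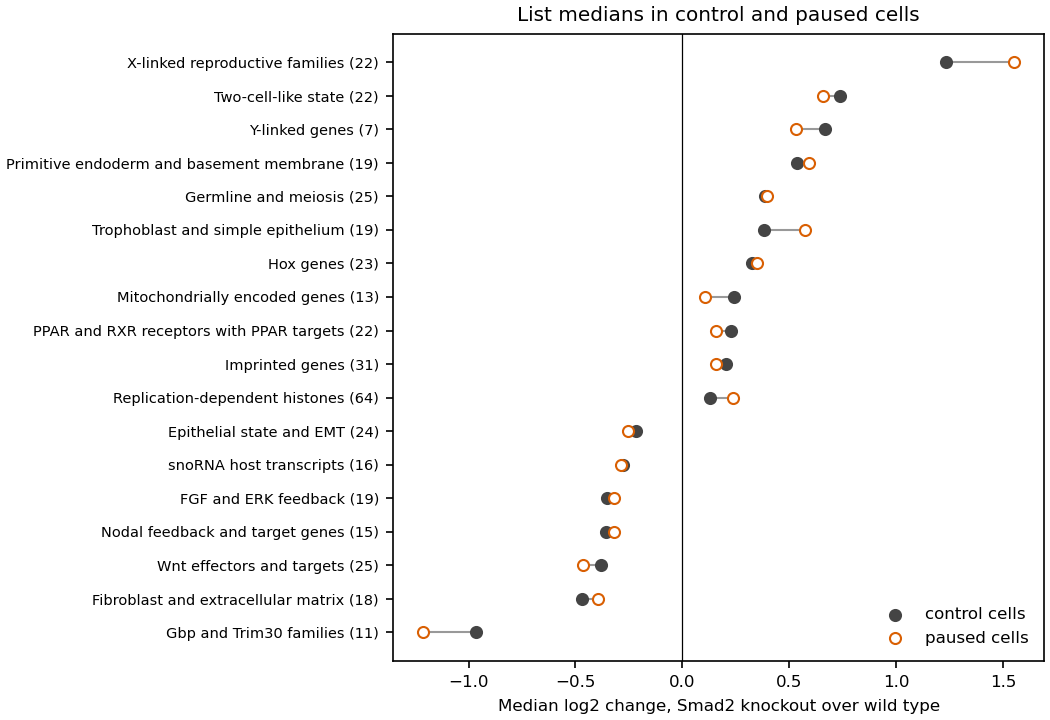
Median log2 change of gene lists in control cells (filled) and in paused cells (open), for lists with a median of at least 0.2 in either. The number after each name counts genes in both tables. The X-linked list lies at 1.23 and 1.55.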

How the data were processed

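Poly(A) RNA was measured in 24 libraries, whose titles give genotype and treatment. Per the submitters' processing notes the tools FastQC, Trim Galore, HISAT2, featureCounts and DESeq2 and the genome build mm10 were used; their versions, order and settings, and the use of strand in counting, are not given in the sources used here. Per the file headers, the authors deposited DESeq2 results tables. The mean normalized count is a signal over libraries computed by the authors, with no statement of which libraries it covers. The authors deposited the change and its standard error on the log2 scale, the statistic as a score, and the p-value with its adjusted p-value. The statistic was checked to be the change over its standard error, and the adjusted p-values to be a Benjamini-Hochberg adjustment over all genes with a p, to within 0.713%. No p is given for 2 genes of the control table. Values per library were not analysed here, so depth is unknown and the standard errors (median 0.11) are the only measure of precision. Columns of no sample that were left out numbered 0.

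Genes were called at an adjusted p under 0.05. For the difference between conditions, the control change was subtracted from the paused change and divided by the combined standard error (quadrature), and the two-sided p, from the normal distribution, was adjusted by Benjamini-Hochberg across 19134 genes. The tables were normalized separately. When tested on simulated data for the 19780 control genes, the call recovered 77% of 200 genes changed 2-fold. Of the 143 of these whose standard error was under 0.25 it recovered 99.3%, and 3.75% of its calls were false. The simulated noise had the deposited standard errors, and all other genes were left unchanged. The simulation therefore cannot show whether those standard errors are of the right size for the real libraries. Alternatives were an adjusted p under 0.01, a test against 1.2-fold and a statistic scaled to its middle spread. Others were a minimum of 5 ppm of summed mean counts, equal summed counts, and a median of 0 over abundant genes. Equal summed counts assumed that all libraries of both knockout lines entered the change.

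The members and the 51 lists were chosen with earlier results of these data known. Lists are described by counts and medians, with no test. Named genes were Smad2, the 15 largest rises and 15 largest falls above the minimum with a standard error of at most 0.5, up to 6 called and 2 uncalled members per list, up to 4 genes per run of neighbours, and the 10 genes of highest mean. Symbols were matched to RefSeq GRCm38.p6 (95.9%); genes placed below 3 Mb, where unlocalized sequence is listed, were kept out of the runs. Python 3.11.15, numpy 2.4.6, scipy 1.17.1 and pandas 2.3.3 were used. Some genes are not reported here.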

Additional observations from a re-analysis of the deposited data

Results flagged for a closer look

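The change after Smad2 loss differed between control and paused cells, by the test of the difference itself over 19134 genes with Benjamini-Hochberg adjustment, for 15 of the named genes. Values are the paused change minus the control change on the log2 scale, from the authors' deposited tables. Fgfr3, an FGF receptor gene, had a difference of -0.74 (SE 0.19, adjusted p 0.0118), with 1.00 in control and 0.26 in paused cells. Smad3, the relative of Smad2, had a difference of -0.48 (SE 0.11, adjusted p 0.00604), with 0.26 in control and -0.21 in paused cells. Mycn, a driver of growth, had a difference of -0.40 (SE 0.08, adjusted p 0.000963), with -0.66 in control and -1.06 in paused cells. Scarb2, a lysosomal membrane protein gene, had a difference of -0.38 (SE 0.07, adjusted p 4.25e-05), with -0.32 in control and -0.69 in paused cells. Klf4, a naive pluripotency factor, had a difference of -0.30 (SE 0.08, adjusted p 0.0264), with 0.56 in control and 0.26 in paused cells. Atg14, an autophagy gene, had a difference of -0.23 (SE 0.07, adjusted p 0.0477), with 0.69 in control and 0.46 in paused cells. Orc1, a replication origin subunit gene, had a difference of -0.19 (SE 0.05, adjusted p 0.0191), with 0.15 in control and -0.04 in paused cells. Those 7 genes had a lower change in paused cells, and the next 8 a higher one. Lin28b, a repressor of let-7, had a difference of 0.35 (SE 0.09, adjusted p 0.017), with -0.999 in control and -0.65 in paused cells. Phgdh, an enzyme of serine synthesis, had a difference of 0.49 (SE 0.11, adjusted p 0.00171), with -0.53 in control and -0.03 in paused cells. Cdkn1c, an imprinted cyclin-dependent kinase inhibitor gene, had a difference of 0.72 (SE 0.20, adjusted p 0.0282), with 0.12 in control and 0.84 in paused cells. Scd2, a fatty acid desaturase gene, had a difference of 0.73 (SE 0.16, adjusted p 0.00313), with -0.64 in control and 0.09 in paused cells. Eomes, a mesendoderm factor, had a difference of 0.89 (SE 0.25, adjusted p 0.0326), with -0.94 in control and -0.06 in paused cells. Prickle1, a planar polarity gene, had a difference of 0.91 (SE 0.22, adjusted p 0.00801), with -1.08 in control and -0.17 in paused cells. Cubn, a receptor gene of visceral endoderm, had a difference of 1.04 (SE 0.27, adjusted p 0.0144), with 1.16 in control and 2.20 in paused cells. Trim30c, a member of a family of similar genes, had a difference of 8.21 (SE 2.25, adjusted p 0.0271), with -8.64 in control and -0.43 in paused cells. Its mean normalized count was 1135 for control cells but 3.19 for paused cells, whose change therefore rests on few counts.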

How the results depend on the processing

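Of the 335 called genes among the 434 named, 304 stayed called with the median of abundant genes set to 0 and 303 with equal summed counts; 170 passed a test against 1.2-fold and 59 passed after the statistic was rescaled to the width of its middle part. None of these changed sign while called, and 16 uncalled genes became called under each scaling. The 8189 calls became 2090 against 1.2-fold and 293 with the rescaled statistic. The 1380 calls of at least 2-fold became 169 with the rescaled statistic and 223 above the minimum on abundance. The 275 genes that differed between conditions became 35 with the rescaled statistic and 2 against 1.2-fold. The cause was not tested, except that the minimum on abundance tests fewer genes. An adjusted p under 0.01 left 6112 calls. No paired analysis was possible because the tables hold no value per library; for the same reason leaving out each replicate in turn was not run. As depth is not known, low counts limit precision only through the deposited standard errors.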

Other observations

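Clusters of similar genes outside the lists were also called higher in blocks. The run of 14 genes on chromosome 4 held zinc finger genes such as Zfp600, named here after its value was seen, which rose with a log2 change of 0.74 (SE 0.07) in the authors' deposited table. A run of 10 genes on the same chromosome held Pramef17 (log2 change 2.20, SE 0.15) and other genes of the Prame family, with a median of 0.64, and a run of 9 on chromosome 13 had a median of 0.68. In the first of these 4 of the 10 genes with a transcript sequence share over 50% of it with another gene, and in the second 4 of 10, so reads can be shared between copies. A set of 22 genes placed on unlocalized sequence of chromosome 5, chosen after their values were seen, gave 21 called higher and 0 lower, with a median of 0.90, and 0.90 in paused cells.

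Among the falls, a run of 8 genes on chromosome 1 had a median of -0.45. It held Hes6, a regulator of neural differentiation (log2 change -0.81, SE 0.08, in the authors' deposited table). It also held the mesenchymal factor Twist2 (-2.47, SE 0.63), at a mean of only 10.2 normalized counts. A run of 7 on chromosome 15 held Prickle1 (log2 change -1.08, SE 0.18), with a median of -0.60 in control and -0.23 in paused cells. A run of 6 on chromosome 16 held Runx1, a factor of blood formation (log2 change -1.04, SE 0.29), with a median of -0.74. Of the symbol families, Kdm, which holds histone demethylase genes, had 44.4% of 18 called higher and 0 lower, and Trmt, which holds tRNA methyltransferase genes, 56.3% of 16 called lower and 0 higher.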
